A study of Mus musculus with 8 samples.

Results

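The pre-B cell receptor (pre-BCR) was followed through 7 genes, *Igll1*, *Vpreb1*, *Vpreb2*, *Vpreb3*, *Ighm*, *Cd79a* and *Cd79b*, matched by Entrez identifier among the 27179 genes of the count table. They were chosen as genes of the receptor, and *Vpreb3*, whose product associates with newly made heavy chains, is counted with them. All 7 were found, and all 7 passed the filter on low counts. RNA depleted of ribosomal RNA was sequenced from early large pre-B (early LPre) and small pre-B (sPre) cells sorted from mouse bone marrow, with 2 libraries (replicates 1 and 2) in each of 4 groups. Mice of both genotypes were *Upf1* Flox/Flox and carried 1 pre-rearranged heavy chain allele (Igh B1-8hi/+). By the study's methods, mice were male and female age-matched adults, but libraries with high Y-linked counts occurred only in Ctrl. Ctrl mice were Mb1 +/+, and cKO mice were Mb1 Cre/+, so that *Upf1*, which encodes an RNA helicase of nonsense-mediated mRNA decay, is deleted in B-lineage cells. The question was how the RNA of the receptor's parts differed between the stages and between libraries labelled Ctrl and cKO.

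The Mb1-Cre allele sits in *Cd79a* itself (Mb1 is an older name of this gene), so that each cKO mouse had a single intact copy of *Cd79a* and each Ctrl mouse had both. Deletion of *Upf1* and loss of that copy cannot be told apart for *Cd79a*, and the other 6 genes were measured in the same mice, in which both go together. The Igh B1-8hi allele is shared by all 8 libraries, and *Ighm* counts can come from it and from the other heavy chain allele. In the genotype comparisons, labels could not be checked on *Upf1*, since the loxP sites flank a small part of the gene and the gene-level count rests mostly on other exons. That count was 213 to 237 CPM (counts per 1000000 counts of a library, scaled with edgeR) in Ctrl and 244 to 258 CPM in cKO early LPre-B cells, and 186 to 198 against 282 to 293 CPM in sPre-B cells.

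The pre-BCR is the checkpoint receptor of B cell development. Its heavy chain, the membrane μ chain encoded by *Ighm*, pairs with a surrogate light chain made of λ5 (*Igll1*) and VpreB (*Vpreb1* or *Vpreb2*), and signals through the Igα (*Cd79a*) and Igβ (*Cd79b*) chains, whose cytoplasmic tails carry tyrosine motifs. Signals from the receptor drive large pre-B cells to divide, after which the surrogate light chain genes are shut off and small pre-B cells rearrange a conventional light chain. *Vpreb3* encodes a VpreB-like protein of the endoplasmic reticulum that associates with newly made μ chains and persists beyond the pre-B stage.

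On mouse genome build GRCm38 (mm10, GENCODE M21), the surrogate light chain genes *Igll1* (Entrez 16136, minus strand, 16860671 to 16863985) and *Vpreb1* (22362, minus strand, 16868403 to 16870843) neighbour each other on chromosome 16. *Vpreb2* (22363) lies on the plus strand of the same chromosome from 17980428 to 17981273. *Vpreb3* (22364) is on chromosome 10 (75943057 to 75949657, plus strand) and *Ighm* (16019) on chromosome 12 (113418558 to 113422730, minus strand). *Cd79a* (12518) is on chromosome 7 (24897381 to 24902197, plus strand) and *Cd79b* (15985) on chromosome 11 (106311341 to 106314762, minus strand).

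*Vpreb1* and *Vpreb2* differ at 9 of 426 coding bases (97.9% identical), and the 120 coding bases of exon 2 with the most differences, where capitals mark the differing bases, show how little separates their reads. The first is the minus strand of chr16:16868638-16868757 and the second the plus strand of chr16:17980919-17981038 (GRCm38, from GENCODE transcripts).
Vpreb1: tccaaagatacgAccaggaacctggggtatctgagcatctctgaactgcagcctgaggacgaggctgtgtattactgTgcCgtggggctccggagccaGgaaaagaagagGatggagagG
Vpreb2: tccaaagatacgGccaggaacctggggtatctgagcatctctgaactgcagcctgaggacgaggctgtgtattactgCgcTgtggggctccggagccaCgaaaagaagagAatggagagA
Of the different 50-base words in the annotated transcripts of *Vpreb2*, 32.8% also occurred in those of *Vpreb1*, and at 100 bases 14.7% did. In the transcripts of *Vpreb1*, 23.6% of the 50-base words were shared with *Vpreb2* or *Top3b*, whose exons overlap it by 108 bases on the opposite strand. The alignment was unstranded and the strand setting of the counting is not given in the sources used here, so the split between these genes is uncertain, and the levels of *Vpreb1* and *Vpreb2* are given with that limit. No 50-base word of *Igll1*, *Vpreb3*, *Ighm* or *Cd79b* was found in transcripts of another gene, and 8.31% of those of *Cd79a* were shared with *Gm32220*.

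The upstream sequence of *Igll1*, the surrogate light chain gene with the largest stage difference in Ctrl, is shown because its promoter is a textbook target of the factors EBF and E2A. The 250 bases before its start (RefSeq, GRCm38.p6, minus strand of chr16:16863986-16864235) are printed with motif matches on either strand in capitals.
Igll1: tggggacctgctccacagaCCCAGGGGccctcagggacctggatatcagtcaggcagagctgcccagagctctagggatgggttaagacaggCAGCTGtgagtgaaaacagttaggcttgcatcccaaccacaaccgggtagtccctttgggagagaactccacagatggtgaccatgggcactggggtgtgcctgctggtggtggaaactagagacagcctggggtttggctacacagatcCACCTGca
From the 5′ end the capitals mark 1 match to the EBF-type motif CCCNNGGG (231 to 224 bases upstream), 1 to the E-box CAGCTG (158 to 153) and 1 to the E-box CAGGTG, read as CACCTG (8 to 3). These letters are common: among 32851 RefSeq windows of the same length, 11.8% held CCCNNGGG, 13.0% CAGCTG, 17.2% CAGGTG and 21.6% the Ikaros-type motif TGGGAA, and the motifs do not overlap in the *Igll1* window. The windows of *Vpreb1* and *Cd79a* each held 1 CAGGTG and none of the other 3 motifs, that of *Vpreb2* held 1 CAGGTG, 1 CAGCTG and 1 TGGGAA, and that of *Vpreb3* held none of the 4. The windows came from RefSeq, whose 5′ ends for *Vpreb1* (16869255), *Vpreb2* (17979445), *Vpreb3* (75943024) and *Cd79a* (24897497) differ from the GENCODE spans above. A match describes the letters only, and binding was not measured here.

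Each library held between 68516857 and 160426338 counts, so that 3 counts, taken as the smallest level that could be shown, were worth 0.0217 to 0.0426 CPM. The 7 genes together took 0.449 to 0.496% of the counts in early LPre-B libraries and 0.872 to 1.10% in sPre-B libraries. Both Ctrl replicate 2 libraries had Y-linked counts (19733 and 28205) and few *Xist* counts (304 and 151), whereas the other 6 had at most 34 Y-linked and at least 290740 *Xist* counts. All cKO libraries were among these 6, so sex was not balanced between the genotypes in any comparison of cKO with Ctrl. Calls of the 7 genes that change without both Ctrl replicate 2 libraries are given with both values, and the lists of other genes were not refitted without them. In every group, none of the fixed marker genes of the B lineage was at 0, and the summed level of 6 T cell genes stayed at or below 1.84 CPM.

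**Figure D1:**
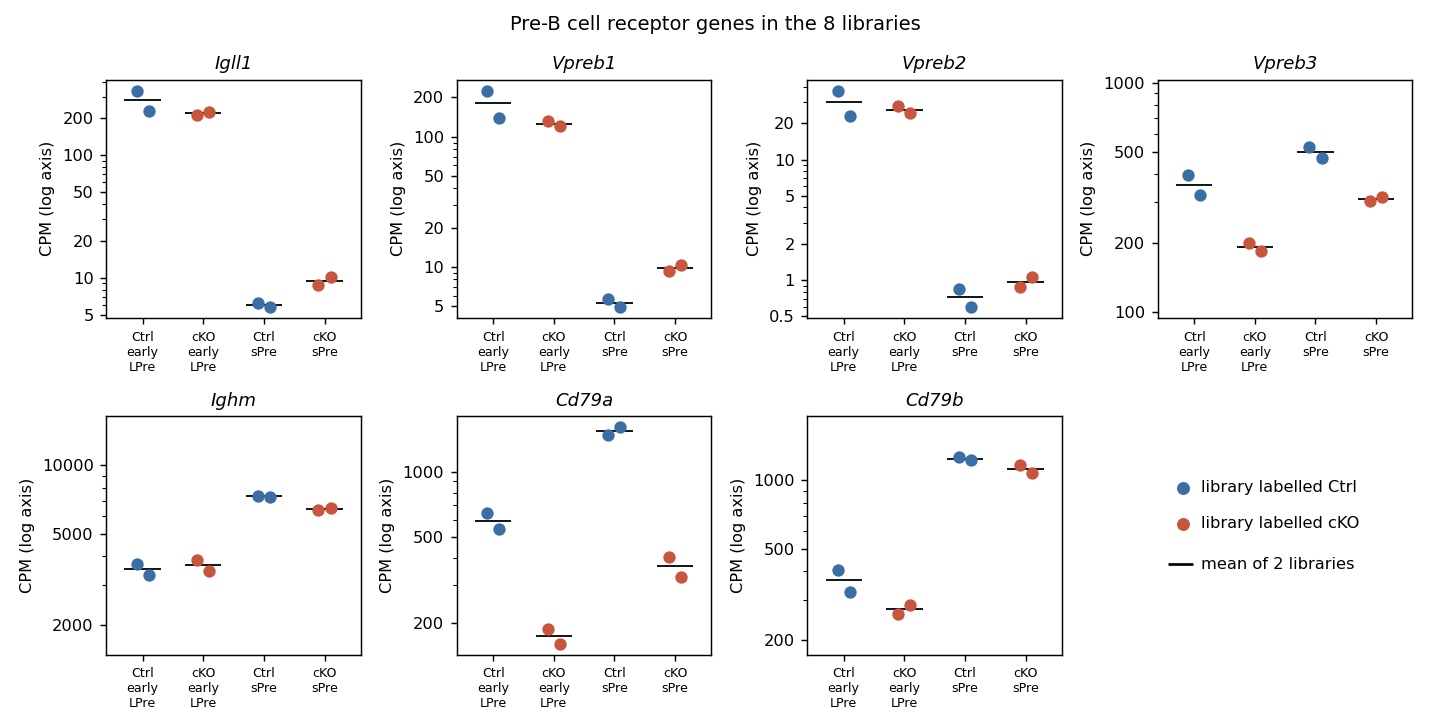
Levels of the 7 pre-BCR genes in CPM on log axes, with 1 point per library and a line at the mean of the 2 libraries of a group. *Igll1*, *Vpreb1* and *Vpreb2* drop by more than 10-fold between early LPre- and sPre-B cells, and *Cd79a* is lower in both cKO groups than in the Ctrl group of the same stage.

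All 7 genes differed between sPre- and early LPre-B cells in Ctrl, 4 of them higher and 3 lower. The same counts, 4 higher and 3 lower, were found in cells labelled cKO. Among all 17700 genes tested with edgeR's quasi-likelihood test at an adjusted P under 0.05, 29.1% were higher and 31.1% lower in sPre-B cells in Ctrl, and 31.6% higher and 31.1% lower in cKO. The median Log2FC over the 7 genes was 0.47 in Ctrl and 0.70 in cKO, against 0.02 and 0.05 over all genes tested.

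The 3 genes that fell were those of the surrogate light chain. *Igll1*, which encodes λ5, had 338 and 229 CPM in the Ctrl libraries of the early LPre stage and 6.28 and 5.76 CPM in the Ctrl sPre-B libraries. In the libraries labelled cKO it had 213 and 227 CPM in early LPre-B cells and 8.77 and 10.2 CPM in sPre-B cells. The stages were thus far apart in both genotypes, with a 47.1-fold lower level in Ctrl sPre-B cells (Log2FC −5.56, SE 0.21, adjusted P = 6.87e-07) and a 23.2-fold lower level in cKO (Log2FC −4.54, SE 0.19, adjusted P = 1.06e-06, both from edgeR's quasi-likelihood test).

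*Vpreb1*, whose product forms the variable-like portion of the surrogate light chain, followed the same course. Its levels were 225 and 138 CPM at the early LPre stage of Ctrl and 5.71 and 4.91 CPM in Ctrl sPre-B cells. In cKO libraries they were 131 and 120 CPM and then 9.24 and 10.3 CPM. The fall was 34.2-fold in Ctrl (Log2FC −5.09, SE 0.24) and 12.9-fold in cKO (Log2FC −3.68, SE 0.22), with adjusted P of 1.37e-06 and 3.72e-06.

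The near-identical *Vpreb2* was the lowest of the 7 per exon length in each group. It was at 37.4 and 23.2 CPM at the early LPre stage of Ctrl and 0.839 and 0.596 CPM in Ctrl sPre-B cells, the latter from 71 and 42 counts. In cKO it was at 27.7 and 24.3 CPM and then at 0.867 and 1.06 CPM, from 80 and 133 counts. All sPre-B values stood above the 3-count level, and the stages differed 41.9-fold in Ctrl (Log2FC −5.39, SE 0.29, adjusted P = 2.22e-06) and 26.8-fold in cKO (Log2FC −4.74, SE 0.28, adjusted P = 3.39e-06).

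*Vpreb3* shares its name with these genes but not their course. It had 394 and 324 CPM at the early LPre stage of Ctrl and 524 and 471 CPM in Ctrl sPre-B cells. In cKO the values were 199 and 184 CPM and then 305 and 316 CPM. It rose between the stages by a Log2FC of 0.47 in Ctrl (SE 0.12, adjusted P = 0.00979) and 0.70 in cKO (SE 0.12, adjusted P = 0.00122), with no overlap of the libraries in either genotype.

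The μ chain gene was the most abundant of the 7 per exon length at both stages. *Ighm* had 3718 and 3317 CPM at the early LPre stage of Ctrl and 7350 and 7293 CPM in Ctrl sPre-B cells. Its levels in cKO were 3871 and 3462 CPM and then 6410 and 6496 CPM. The rise was 2.08-fold in Ctrl (Log2FC 1.06, SE 0.18, adjusted P = 0.00107) and 1.76-fold in cKO (Log2FC 0.82, SE 0.18, adjusted P = 0.00417).

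Both signalling chains also rose. *Cd79a*, encoding Igα, had 640 and 543 CPM at the early LPre stage of Ctrl and 1478 and 1602 CPM in Ctrl sPre-B cells, a 2.60-fold increase (Log2FC 1.38, SE 0.16, adjusted P = 0.000108). In cKO it had 188 and 160 CPM and then 405 and 325 CPM, a 2.10-fold increase (Log2FC 1.07, SE 0.16, adjusted P = 0.000445). The increase was therefore present from the lower level of the cKO libraries as well. *Cd79b*, encoding Igβ, went from 407 and 326 CPM to 1260 and 1227 CPM in Ctrl, 3.39-fold higher (Log2FC 1.76, SE 0.15, adjusted P = 1.64e-05). In cKO it went from 261 and 284 CPM to 1170 and 1081 CPM, 4.12-fold higher (Log2FC 2.04, SE 0.15, adjusted P = 8.22e-06).

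These stage differences kept their direction and stayed past the threshold for each of the 7 genes in both genotypes when any single library was left out and under the other settings tried. The Ctrl and the cKO stage comparison share no library. Markers of the sorted stages moved with them in part. The summed level of 7 large pre-B genes was 8102 to 8871 CPM in Ctrl early LPre- and 1252 to 1749 CPM in Ctrl sPre-B cells. In cKO it was 5417 to 5769 and 1766 to 2230 CPM. *Mki67* and *Top2a* made up most of it at the early LPre stage, and *Il7r* did not fall in either genotype. The 5 small pre-B genes summed to 684.5 to 689.9 and 4472 to 4937 CPM in Ctrl. In cKO they summed to 402 to 436 and 3364 to 3597 CPM. Myeloid genes rose too (115 to 140 and 310.5 to 363 CPM in Ctrl, 54.4 to 59.4 and 218 to 250 CPM in cKO). In bulk RNA, fewer cells of a type and less RNA per cell cannot be told apart.

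**Figure D2:**
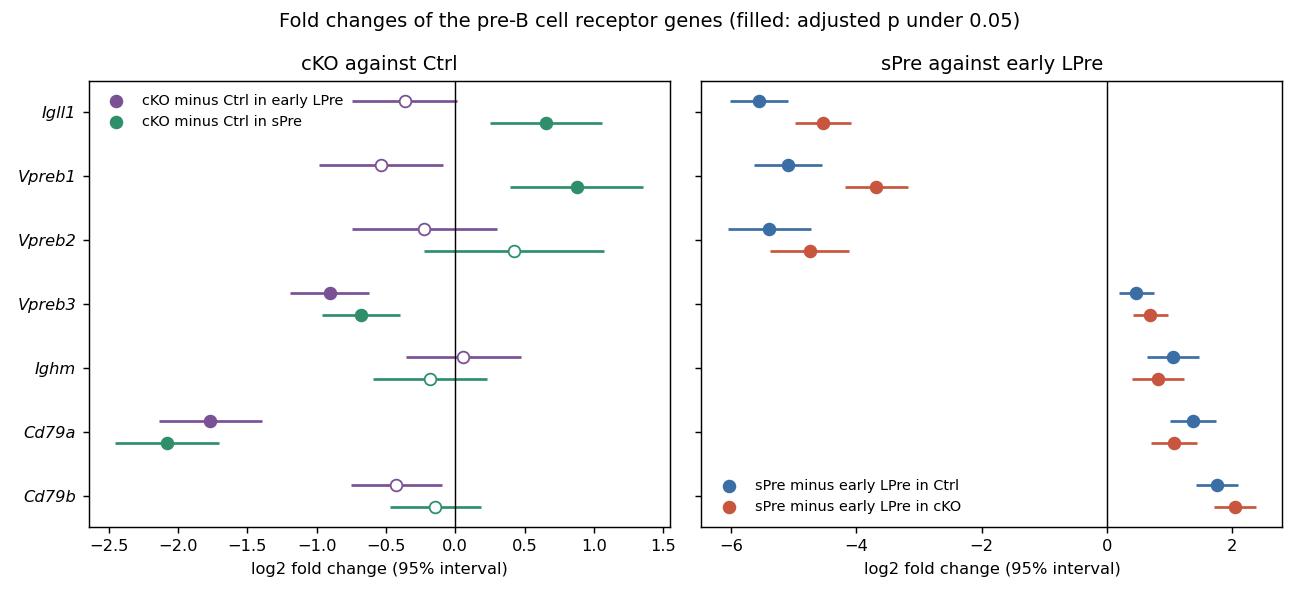
Log2FC of each pre-BCR gene with its 95% interval, for cKO against Ctrl at each stage (left) and for sPre- against early LPre-B cells in each genotype (right), with points filled where the adjusted P was under 0.05. The surrogate light chain genes lie between −5.56 and −3.68 in the stage comparison, and *Cd79a* lies at −1.77 and −2.08 in the genotype comparison.

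Levels can be compared between the genes only per length, as CPM per kilobase of annotated exon. On this scale *Ighm* led in each group, with 1865 ± 150 (SD, n = 2) in Ctrl early LPre-B, 1944 ± 153 in cKO early LPre-B, 3882 ± 21.4 in Ctrl sPre-B and 3421 ± 32.2 in cKO sPre-B cells. In Ctrl early LPre-B cells, *Vpreb3* (418 ± 58.3) and *Cd79a* (406 ± 47.3) followed with overlapping libraries, then *Cd79b* (256 ± 40.0), and then *Vpreb1* (151 ± 51.7) and *Igll1* (131 ± 35.6), which overlapped too, with *Vpreb2* (39.9 ± 13.2) below them. In Ctrl sPre-B cells the order was *Cd79a* (1057 ± 60.4), *Cd79b* (869 ± 16.3) and *Vpreb3* (579 ± 44.2), each with both libraries above the next, with the surrogate light chain genes at 4.43 ± 0.473 (*Vpreb1*), 2.78 ± 0.170 (*Igll1*) and 0.945 ± 0.227 (*Vpreb2*).

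The place of *Cd79a* in this order differed in the cKO libraries. In early LPre-B cells labelled cKO, *Vpreb3* (223 ± 12.0) stood above *Cd79b* (191 ± 11.3), and *Cd79b* above *Cd79a* (119 ± 13.4), with no overlap between these neighbours. These lengths are from GENCODE, and RefSeq places the ends of these genes elsewhere, so near neighbours such as *Vpreb3* and *Cd79b* may change places. In sPre-B cells labelled cKO, *Cd79b* (786 ± 43.8) led *Vpreb3* (361 ± 8.49) and *Cd79a* (251 ± 38.9). *Vpreb1* and *Igll1* overlapped in cKO early LPre-B cells (105 ± 6.01 and 102 ± 4.63) and did not in cKO sPre-B cells (8.13 ± 0.601 and 4.38 ± 0.462).

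In early LPre-B cells, 2 of the 7 genes had a lower level under the cKO label and 0 a higher level at an adjusted P under 0.05. Of all genes tested, 16.9% were lower and 14.5% higher. The 2 genes were *Cd79a* and *Vpreb3*. The median Log2FC of the 7 was −0.43, against −0.06 over all genes tested.

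*Cd79a* showed the largest genotype difference of the 7. Its 188 and 160 CPM in cKO lay below the 640 and 543 CPM of Ctrl, a 3.40-fold lower level (Log2FC −1.77, SE 0.16, 95% interval −2.14 to −1.40, adjusted P = 0.000157). *Vpreb3* was at 199 and 184 CPM against 394 and 324 CPM, 1.87-fold lower (Log2FC −0.91, SE 0.12, adjusted P = 0.00111).

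Both differences held with each library left out in turn, with a Log2FC of −1.88 to −1.61 for *Cd79a* and −0.99 to −0.72 for *Vpreb3*. The second signalling chain was lower by less and did not pass the threshold. *Cd79b* had 261 and 284 CPM against 407 and 326 CPM (Log2FC −0.43, SE 0.14, adjusted P = 0.0522). It lay near the threshold. It passed once replicate numbers entered the fit as a block (Log2FC −0.42, adjusted P = 0.0397), with DESeq2 (adjusted P = 0.00827), a sex term (0.0159), the likelihood-ratio test (0.0314) and the other immunoglobulin genes left out (0.0468), and had a Log2FC of −0.22 (adjusted P = 0.273) without Ctrl early LPre replicate 1.

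Among the surrogate light chain genes, the calls turned on a single Ctrl library and on the settings of the test. *Igll1* (Log2FC −0.37, SE 0.17, adjusted P = 0.129) and *Vpreb1* (Log2FC −0.53, SE 0.20, adjusted P = 0.0705) had both cKO libraries below both Ctrl libraries, as did 36.4% of all genes tested, but did not pass. Without Ctrl early LPre replicate 2, they passed at a Log2FC of −0.57 (adjusted P = 0.0157) and −0.79 (adjusted P = 0.00683), and *Cd79b* passed at −0.53 (adjusted P = 0.0316). Without both Ctrl replicate 2 libraries, *Igll1* was at −0.57 (adjusted P = 0.0191), *Vpreb1* at −0.79 (adjusted P = 0.00774) and *Cd79b* at −0.53 (adjusted P = 0.0276). Without Ctrl early LPre replicate 1, the Log2FC of *Igll1* was −0.02 and that of *Vpreb1* −0.10. With all libraries, *Vpreb1* passed with the likelihood-ratio test (adjusted P = 0.0418), DESeq2 (0.0283), no expression filter (0.0154) and a sex term (0.00519), and *Igll1* with the sex term (0.0187). The sex term marked only the Ctrl replicate 2 libraries, so it is not a check separate from leaving these out.

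Neither *Vpreb2* nor *Ighm* passed the test at this stage, and the libraries of both overlapped. *Vpreb2* had a Log2FC of −0.22 (95% interval −0.74 to 0.30, adjusted P = 0.497), although with a sex term in the fit it passed at −0.49 (adjusted P = 0.0331). For *Ighm* it was 0.06 (95% interval −0.35 to 0.47, adjusted P = 0.836).

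Large pre-B markers moved with this comparison. Of the 7, 6 (*Kit*, *Spn*, *Dntt*, *Mki67*, *Top2a* and *Ccnb2*) were lower in both cKO than in both Ctrl libraries, and the summed level of all 7 was 5417 to 5769 CPM in cKO and 8102 to 8871 CPM in Ctrl early LPre-B cells. Over all genes tested, both cKO libraries lay below both Ctrl libraries in 36.4% and above them in 29.9%. Among the B lineage genes reported here, *Ptprc*, *Pax5*, *Ebf1*, *Blk* and *Cd72* were lower in both cKO libraries and *Cd22* higher. Small pre-B genes summed to 402 to 436 CPM in cKO against 684.5 to 689.9 CPM in Ctrl, with *Il2ra*, *Rag1* and *Rag2* lower and *Igkc* higher, and immature and mature B genes to 496 to 531 CPM against 400.2 to 435 CPM, with 4 of 9 higher. Myeloid genes summed to 54.4 to 59.4 CPM in cKO and 115 to 140 CPM in Ctrl, with 4 of 8 lower. Erythroid genes summed to 10.5 to 16.1 against 19.6 to 25.2 CPM (4 of 6 lower, 1 higher), plasma cell genes to 41.6 to 47.4 against 74.3 to 89.4 CPM (1 of 4 lower), and plasmacytoid dendritic cell genes to 117.5 to 139 against 176 to 188.5 CPM (2 of 4 lower, 2 higher). Their part in the differences of the receptor genes was not tested.

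In sPre-B cells, the cKO label went with a higher level of 2 of the 7 genes and a lower level of 2, where 19.8% of all genes tested were higher and 14.9% lower. *Cd79a* and *Vpreb3* were lower here too, and *Igll1* and *Vpreb1* were higher. The median Log2FC of the 7 was −0.14, against 0.01 over all genes tested.

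For *Cd79a*, 405 and 325 CPM in cKO stood against 1478 and 1602 CPM in Ctrl. This was a 4.22-fold lower level (Log2FC −2.08, SE 0.16, 95% interval −2.45 to −1.70, adjusted P = 7.05e-05). The range with a library left out was −2.24 to −1.93. *Cd79b*, by contrast, had 1170 and 1081 CPM against 1260 and 1227 CPM and did not pass (Log2FC −0.14, 95% interval −0.47 to 0.18, adjusted P = 0.474).

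*Vpreb3* was at 305 and 316 CPM in cKO and 524 and 471 CPM in Ctrl sPre-B cells, 1.60-fold lower (Log2FC −0.68, SE 0.12, adjusted P = 0.00359). It passed with each library left out. *Ighm* had 6410 and 6496 CPM against 7350 and 7293 CPM, and its difference did not pass (Log2FC −0.18, 95% interval −0.59 to 0.23, adjusted P = 0.473).

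*Igll1* and *Vpreb1*, low in Ctrl sPre-B cells, were higher in cKO. *Igll1* had 8.77 and 10.2 CPM (809 and 1274 counts) in cKO against 6.28 and 5.76 CPM (531 and 406 counts) in Ctrl, 1.58-fold higher (Log2FC 0.66, SE 0.18, adjusted P = 0.021). *Vpreb1* had 9.24 and 10.3 CPM (852 and 1283 counts) against 5.71 and 4.91 CPM (483 and 346 counts), 1.84-fold higher (Log2FC 0.88, SE 0.21, adjusted P = 0.0131). Both cKO libraries of both genes lay above both Ctrl libraries, as in 36.5% of all genes tested, and the level stayed far below that of any early LPre-B library.

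These 2 calls rested on few libraries. *Igll1* lost its call without Ctrl sPre replicate 1 (adjusted P = 0.0653), without Ctrl sPre replicate 2 (0.11) and without cKO sPre replicate 2 (0.106). *Vpreb1* lost it without Ctrl sPre replicate 2 (0.0828) and without cKO sPre replicate 2 (0.0584). The Log2FC stayed between 0.54 and 0.76 for *Igll1* and between 0.74 and 0.95 for *Vpreb1* in all 8 of these fits.

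*Vpreb2*, at 0.867 and 1.06 CPM against 0.839 and 0.596 CPM, did not pass (Log2FC 0.42, 95% interval −0.22 to 1.07, adjusted P = 0.282). At 42 to 133 counts per library, a difference of the size seen in *Vpreb1* (0.88) lay within this interval.

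Other markers moved in the same libraries. The summed level of the large pre-B genes was 1766 to 2230 CPM in cKO and 1252 to 1749 CPM in Ctrl sPre-B cells, with *Il7r* higher, *Dntt* lower and the other 5 of 7 overlapping. Small pre-B genes summed to 3364 to 3597 CPM in cKO against 4472 to 4937 CPM in Ctrl, with *Il2ra* and *Igkc* higher and *Cd2*, *Rag1* and *Rag2* lower. Immature and mature B genes summed to 866 to 1175 CPM against 464 to 470 CPM, with 7 of 9 higher. Over all genes tested, both cKO libraries lay above both Ctrl libraries in 36.5% and below them in 34.3%. Among the B lineage genes reported here, *Ptprc*, *Ebf1*, *Blk* and *Cd72* were lower in both cKO libraries and none was higher. Myeloid genes summed to 218 to 250 CPM in cKO against 310.5 to 363 CPM in Ctrl (5 of 8 lower) and erythroid genes to 15.4 to 24.1 against 31.8 to 37.6 CPM (3 of 6 lower). Plasma cell genes summed to 35.98 to 59.2 against 69.9 to 109 CPM (2 of 4 lower, 1 higher), and plasmacytoid dendritic cell genes to 187 to 199.8 against 230.3 to 237 CPM (1 of 4 lower, 2 higher). Their part in the differences of *Igll1*, *Vpreb1*, *Vpreb3* and *Cd79a* was not tested.

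Whether the cKO label acted differently at the 2 stages was asked with the interaction of stage and genotype. *Vpreb1* alone among the 7 passed, with an effect that was 1.41 higher on the log2 scale at the sPre stage than at the early LPre stage (SE 0.29, adjusted P = 0.0346), so that 1 of 7 was higher and 0 lower where 2.64% and 1.6% of all genes tested were. *Igll1* had a difference of 1.02 (SE 0.24, adjusted P = 0.0539) and *Vpreb2* one of 0.65 (SE 0.36, adjusted P = 0.359). Without a single library, the adjusted P of *Vpreb1* was above the threshold in 6 of 8 fits and at most 0.12. The interaction did not pass for *Cd79a* (−0.31, 95% interval −0.82 to 0.20, adjusted P = 0.486) or *Vpreb3* (0.22, 95% interval −0.17 to 0.62, adjusted P = 0.518). These values use the same libraries as the comparisons above.

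**Figure D3:**
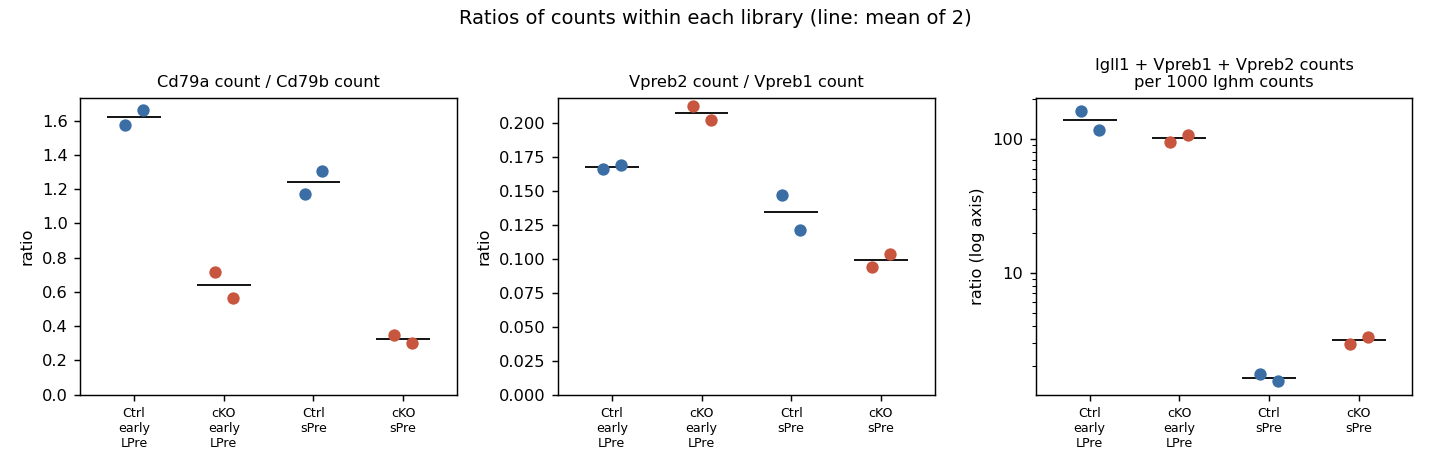
Ratios of counts within each library for the signalling chains, the VpreB paralogs and the surrogate light chain relative to the μ chain (log axis), with 1 point per library and a line at the mean of 2. The *Cd79a* to *Cd79b* ratio is above 1 in the 4 Ctrl libraries and below 1 in the 4 libraries labelled cKO.

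A ratio of 2 genes within a library does not depend on how libraries were scaled, and it is read here between libraries only. The count of *Cd79a* relative to that of *Cd79b* was 1.57 and 1.67 in Ctrl early LPre-B and 1.17 and 1.31 in Ctrl sPre-B cells. It was 0.718 and 0.563 in cKO early LPre-B and 0.346 and 0.301 in cKO sPre-B cells. Igα transcripts were thus fewer relative to Igβ transcripts in each library labelled cKO than in any Ctrl library. With 2 libraries against 2, an exact permutation test cannot give a p below 0.333, and none was run on the ratios.

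The surrogate light chain counts (*Igll1*, *Vpreb1* and *Vpreb2* summed) per 1000 *Ighm* counts were 162 and 118 in Ctrl and 95.9 and 107 in cKO early LPre-B cells. In sPre-B cells they were 1.75 and 1.54 in Ctrl and 2.95 and 3.31 in cKO. The order of the genotypes was reversed between the stages, but the early LPre part of this rests mostly on Ctrl replicate 1. None of the summed genes passed the genotype test at that stage. Without that library, the Log2FC was −0.02 for *Igll1*, −0.10 for *Vpreb1* and 0.20 for *Vpreb2*. How often ratios of other genes reverse in this way was not counted. Relative to *Vpreb1*, *Vpreb2* had 0.166 and 0.169 in Ctrl early LPre-B, 0.212 and 0.202 in cKO early LPre-B, 0.147 and 0.121 in Ctrl sPre-B and 0.0939 and 0.104 in cKO sPre-B cells. The 2 paralogs thus did not keep a fixed proportion of counts, with the limit on how reads were split between them given above.

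Across the 8 libraries, the log2 levels of *Igll1* followed those of *Vpreb1* (Pearson r = 0.998) and *Vpreb2* (r = 0.998), and ran against *Ighm* (r = −0.986) and *Cd79b* (r = −0.969). *Vpreb3* was closest to *Cd79a* (r = 0.968), less close to *Cd79b* (r = 0.705) and *Ighm* (r = 0.628), and ran against *Igll1* (r = −0.584). These values describe 8 points that fall into 4 groups and share their library sizes. Among 17693 other genes tested, those most like *Igll1* were *Apoo* (r = 0.999), *Chaf1b* (r = 0.999) and *Tfdp1* (r = 0.999), and those most like *Vpreb1* were *Cdk4* (r = 0.999), *Gtf2f1* (r = 0.999) and *Naa40* (r = 0.998). For *Vpreb2* they were a gene listed by Entrez identifier only, *Hdgf* (r = 0.999) and *Ranbp1* (r = 0.999).

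*Vpreb3* was most like *Aph1c* (r = 0.994), *Ostf1* (r = 0.993) and *Tmsb10* (r = 0.991), and *Ighm* most like the joining segment *Ighj2* (r = 0.998), *Sspn* (r = 0.997) and *Dnajc16* (r = 0.997). *Cd79a* was most like *Lnx2* (r = 0.993), *2210016F16Rik* (r = 0.993) and *Atp6ap1* (r = 0.992). *Cd79b* was most like *Dbnl* (r = 0.998), the kappa segment *Igkv8-24* (r = 0.998) and *C030034I22Rik* (r = 0.997).

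**Figure D4:**
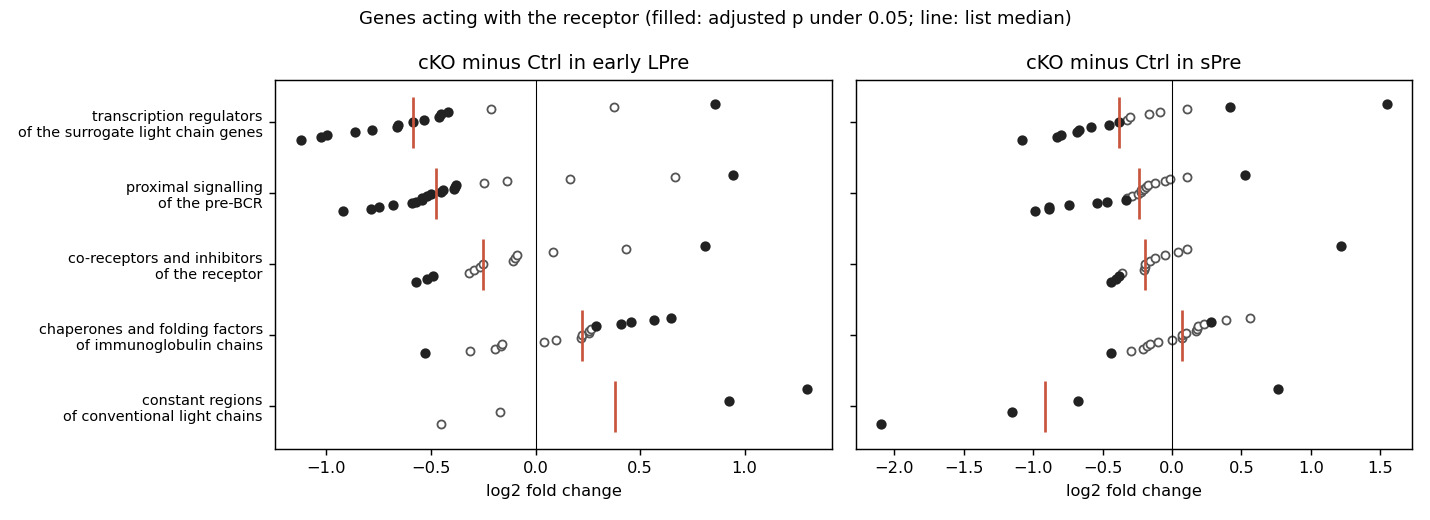
Log2FC of cKO against Ctrl in early LPre- (left) and sPre-B cells (right) for 5 lists of genes that act with the receptor, with points filled where the adjusted P was under 0.05 and a line at each list's median. In early LPre-B cells 12 of 15 regulators and 15 of 20 signalling genes lie to the left of 0 as filled points.

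Genes that act with the receptor were read from 5 lists, and each count stands against the share of all 17700 genes tested that passed in the same direction. In cKO at the early LPre stage that share was 16.9% lower and 14.5% higher. Of 15 transcription regulators of the surrogate light chain genes, 12 had a lower and 1 a higher level in cKO at the early LPre stage (median Log2FC −0.59). *Sox4* was lowest at a Log2FC of −1.12 (adjusted P = 0.00171), and *Myc*, which encodes a growth regulator, was higher at 0.86 (adjusted P = 0.00924). *Ebf1*, the early B cell factor that activates *Igll1* and *Cd79a*, was lower at −0.45 (adjusted P = 0.035), and the Log2FC of *Pax5* was −0.21 (adjusted P = 0.238); both were named after their values were seen.

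In sPre-B cells 8 of the 15 regulators were lower and 2 higher (median −0.38), where 14.9% of all genes were lower and 19.8% higher. The largest changes were in *Tcf12*, an E protein, at −1.08 (adjusted P = 0.00106), and in *Myc* at 1.55 (adjusted P = 0.000852), from 2.13 to 6.26 CPM. *Ebf1* was at −0.80 (adjusted P = 0.00265). *Igll1* and *Vpreb1* were higher in the same libraries.

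Between the stages, 10 regulators rose and 2 fell in Ctrl, and 11 rose and 2 fell in cKO, where 29.1% of all genes rose and 31.1% fell in Ctrl and 31.6% rose and 31.1% fell in cKO. *Ikzf3*, encoding the repressor Aiolos, rose most in both (Log2FC 1.76 and 2.40). *Myc* fell most in both (Log2FC −4.68 and −3.98). In the interaction 2 of the 15 were higher and 0 lower (2.64% and 1.6% of all genes), with *Lef1* highest at 0.94 (adjusted P = 0.049).

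Proximal signalling genes, 20 in all, had 15 lower and 1 higher in cKO at the early LPre stage (median Log2FC −0.47), against 16.9% and 14.5% of all genes. The extremes were the adaptor *Lat* at −0.92 (adjusted P = 0.0096) and the kinase *Zap70* at 0.94 (adjusted P = 0.0477). *Syk*, the kinase that binds the tails of Igα and Igβ, was lower at −0.68 (adjusted P = 0.0129) and was named here after its value was seen. In sPre-B cells 7 were lower and 1 higher (median −0.24; 14.9% and 19.8% of all genes), led by *Pik3r1* at −0.99 (adjusted P = 0.000647) and *Vav2* at 0.53 (adjusted P = 0.0185).

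Across the stages, 12 of the 20 rose and 4 fell in Ctrl, and 12 rose and 3 fell in cKO, against 29.1% and 31.1% of all genes in Ctrl and 31.6% and 31.1% in cKO. *Syk* rose most in both (Log2FC 1.47 and 1.92), and *Zap70* fell most (Log2FC −4.58 and −5.41). For the interaction, 0 of the 20 passed in edgeR's quasi-likelihood test, where 2.64% of all genes were higher and 1.6% lower, so this count lay near the background.

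Co-receptors and inhibitors of the receptor, 13 genes, had 3 lower and 1 higher at each stage in cKO (medians −0.25 and −0.19). Lower genes made up 16.9% of all genes tested in early LPre-B and 14.9% in sPre-B cells, and higher ones 14.5% and 19.8%, so that these counts lay near the background. In early LPre-B cells the tetraspanin *Cd81* was lowest at −0.57 (adjusted P = 0.00524), and *Cd22*, an inhibitory lectin, was higher at 0.81 (adjusted P = 0.0172). In sPre-B cells *Cd72* was lowest at −0.44 (adjusted P = 0.0484) and the complement receptor *Cr2* was higher at 1.21 (adjusted P = 0.00189). Between the stages 7 rose and 2 fell in each genotype (29.1% and 31.1% of all genes in Ctrl, 31.6% and 31.1% in cKO), with *Cd81* falling most (−1.12 and −0.95).

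Of 17 chaperones and folding factors of immunoglobulin chains, 5 were higher and 1 lower in cKO at the early LPre stage (median Log2FC 0.22), led by *Sdf2l1* at 0.65 (adjusted P = 0.0353) and by *Mzb1*, a cofactor in antibody assembly, at −0.53 (adjusted P = 0.00656). Of all genes tested, 14.5% were higher and 16.9% lower. In sPre-B cells 1 was higher, the glycoprotein sensor *Uggt1* at 0.28 (adjusted P = 0.0397), and 1 lower, *Mzb1* at −0.44 (adjusted P = 0.0136), with a median of 0.07, where 19.8% and 14.9% of all genes were. From early LPre- to sPre-B cells 4 rose and 7 fell in Ctrl, and 3 rose and 9 fell in cKO, where 29.1% of all genes rose and 31.1% fell in Ctrl and 31.6% and 31.1% did in cKO. The oxidase gene *Ero1b* rose most (1.81 and 2.04), and *Sdf2l1* fell most (−1.98 and −2.06).

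Constant regions of the conventional light chains, which take the place of the surrogate light chain, were 4 genes. All 4 rose between the stages in both genotypes, as did 29.1% of all genes tested in Ctrl and 31.6% in cKO, and the largest increases were those of *Iglc1* in Ctrl (Log2FC 9.66) and *Iglc3* in cKO (Log2FC 8.02). *Igkc*, the kappa constant region, had mean levels of 152 and 672 CPM in Ctrl and 289 and 1143 CPM in cKO at the early LPre and sPre stages, and was higher in cKO sPre-B cells by a Log2FC of 0.77 (adjusted P = 0.00196). The 3 lambda genes were lower there, most of all *Iglc1* at −2.10 (adjusted P = 0.00272), where 14.9% of all genes were lower and 19.8% higher.

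In early LPre-B cells labelled cKO, 2 of the 4 were higher (14.5% of all genes), *Igkc* at 0.93 (adjusted P = 0.000967, named after its value was seen) and *Iglc2* at 1.30 (adjusted P = 0.0026), the latter from a mean of 0.515 to 1.20 CPM. *Iglc2* was also the 1 gene of the 4 that passed in the interaction, at −2.45 (adjusted P = 0.00387), where 1.6% of all genes were lower. *Iglc2* and *Iglc3* are near-identical copies, so the split of their reads is uncertain, and reads shared among the lambda genes were not measured.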

How the data were processed

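For the 8 libraries analysed here, the authors deposited raw counts per gene, made with featureCounts after trimming (Trim Galore) and unstranded, paired-end alignment to mm10 (HISAT2), and not normalized. The library kit was directional, and the strand setting used in counting is not given in the sources used here. The annotation used for counting is not given in the sources used here. The values are whole numbers that sum to a different total in each library, and a level of 3 counts covers counting error only. Genes were listed by Entrez identifier, and 25275 of 27179 were named from RefSeq tables.

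All fits used edgeR 4.0.16 (R 4.3.3) with TMM factors, which ranged from 0.862 to 1.09. After filterByExpr, 17700 genes entered 1 model with a mean for each group, and each comparison was a two-sided quasi-likelihood F test. P was adjusted by Benjamini-Hochberg across these genes, with a threshold of 0.05. The SE is the absolute Log2FC divided by the square root of F. Levels per length used the exons of GENCODE M21, which may differ from the authors' annotation, and correlations used log2 CPM with a prior count of 2. Alternatives were the likelihood-ratio test, DESeq2 1.42.0, median-ratio factors, no filter, a replicate block, a sex term, leaving out immunoglobulin genes other than *Ighm* or the 7 genes from the scaling, fitting only the 4 libraries compared, and leaving out each library. The sex term marked only the Ctrl replicate 2 libraries, so it was estimated from the difference between replicates within Ctrl. Data points are independent biological replicates by the study's methods, although the labels do not name animals.

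The 7 genes, the gene lists and the markers were chosen with earlier results of these data known. Named were the 7 genes, *Upf1*, the called gene of each list with the largest increase and decrease in each comparison, and the 3 genes most like each of the 7. *Ebf1*, *Pax5*, *Syk*, *Igkc* at the early LPre stage and the marker genes were named outside this rule, after their values were seen. A result that this rule names is not reported here. Promoter windows came from RefSeq (5 of 7 genes had one) and transcripts from GENCODE.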

Additional observations from a re-analysis of the deposited data

Results flagged for a closer look

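The effect of the cKO label on *Vpreb1* was 1.41 higher on the log2 scale at the sPre stage than at the early LPre stage (SE 0.29, adjusted P = 0.0346, interaction term of edgeR's quasi-likelihood test), which is why this gene was singled out. Its Log2FC was −0.53 in early LPre-B cells and 0.88 in sPre-B cells. The interaction lost its call in 6 of the 8 fits that leave out a library, where its value lay between 0.94 and 1.63. Reads of *Vpreb1* may be split with *Vpreb2*, for which the interaction was 0.65 (adjusted P = 0.359).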

How the results depend on the processing

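Of 623 values of single genes recomputed under an alternative, 588 kept their direction and side of the threshold, 22 passed only under the alternative, 11 no longer passed and 2 reversed. The reversed ones were in early LPre-B cells, where a library left out gave −0.47 to 0.20 for *Vpreb2* (0.20 without Ctrl replicate 1) and −0.0204 to 0.18 for *Ighm* (−0.0204 without cKO replicate 1), and neither gene passed the test. Of the 7 genes, 2 were lower in cKO at the early LPre stage, but 3 with no expression filter (*Vpreb1* added) or without the other immunoglobulin genes (*Cd79b* added), 4 with the likelihood-ratio test or DESeq2, 6 with a sex term, 5 without both Ctrl replicate 2 libraries (an alternative chosen after seeing the data) and 2 to 5 with a library left out (5 without Ctrl early LPre replicate 2). Of the genes added, *Vpreb1* and *Cd79b* were among them in each setting with 4 or more, and the sex term also added *Igll1* (−0.53, adjusted P = 0.0187) and *Vpreb2* (−0.49, adjusted P = 0.0331). That term marked only the Ctrl replicate 2 libraries, so its count is not separate from the count without them. The number higher in sPre-B cells, 2, was 0 to 2 with a library left out. For the interaction, 1 gene was higher, but 2 with the likelihood-ratio test, DESeq2, no expression filter or a sex term, and 0 to 2 with a library left out; *Igll1* was the gene added. With a library left out, the lone library of its group was assumed to vary like the other groups. Replicate numbers were not shown to pair the libraries (correlations of same-numbered libraries over 17700 genes of 0.0858 to 0.395, from 2 pairs each); with the replicate block 3 genes, *Cd79b* added, were lower and 0 higher in cKO at the early LPre stage, and 2 and 2 in sPre-B cells. Scaling alternatives moved the median of all genes by −0.0416 to 0.0262 (log2). *Vpreb2* had the fewest counts of the 7 genes in sPre-B cells, 42 to 133 per library, and the part of depth in its missing genotype call was not tested.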
